A study of Mus musculus with 4 samples.

Results

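The 76 genes described here encode the proteins of the cytosolic ribosome and were taken from the 21631 protein-coding genes of chromosomes 1 to 19 and X by symbol: Rpl or Rps followed by a number and at most 1 of the letters a, x or y, together with Rplp0, Rplp1, Rplp2 and Rpsa. They comprise 43 large-subunit genes (Rpl), 30 small-subunit genes (Rps and Rpsa) and 3 genes of the ribosomal stalk (Rplp). Pseudogenes and mitochondrial ribosomal protein genes were left out by the rule. Rps3a1 and Fau, whose products also belong to the cytosolic ribosome, have symbols that the rule does not match. Lysine 27 acetylation of histone H3 (H3K27ac) was mapped by ChIP-seq, the sequencing of DNA from immunoprecipitated chromatin, and is given for each gene as the peaks that the authors called within the gene body extended by 1 kb at each end.

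Every cell expresses ribosomal protein genes at a high level, because the ribosome needs its proteins in nearly equal numbers. Most are encoded in mice mainly by a single gene among many processed pseudogenes, and some also have related genes such as Rps27l. Their promoters are open and unmethylated, and their transcripts usually start at a C inside a run of pyrimidines, the 5′ terminal oligopyrimidine (TOP) tract, through which mTOR signalling controls translation. H3K27ac is deposited on the nucleosomes beside active promoters and at enhancers. In neural stem cells, ribosome production is closely tied to growth and division.

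The cells were neural stem cells cultured from female mouse embryos of embryonic day 14.5. In the deleted group (Smchd1 del/del), del/fl cells received the MSCV-Cre-puro retrovirus, puromycin was added after 24 h and the cells were collected on day 7; control cells, titled Smchd1 fl/fl but with a del/fl genotype field, were not transduced. Smchd1 encodes a chromatin protein that takes part in silencing of the inactive X chromosome and of imprinted and other gene clusters. Deletion, transduction and selection cannot be told apart. All cells carried a maternal X chromosome of 129 origin with a deleted Xist allele (Xist 129-KO, deltaA) and a paternal Castaneus X with intact Xist, while the strain field gives C57BL/6. Each group had 1 H3K27ac library and 1 whole-cell-extract input. The antibody field of both ChIP libraries names H3K27me3, not H3K27ac, and the control input has a del/del genotype field, so the groups follow the sample titles. With 1 library per group no difference between groups has a replicate check, and no p-value is given.

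After filtering, the ChIP libraries held 54194233 tags in deleted and 42277672 in control cells, and the lists compared held 91557 and 63613 peaks. The deeper library can pass weaker peaks, so the number and width of peaks move with depth. Fold enrichment is the pileup of tags at a peak's summit over the local background, as the authors' caller gave it; it is a ratio within 1 library and is not scaled between the 2. The neural stem cell label was checked against 10 markers. All 10 had peaks in both lists, led by Sox2 (fold enrichment 20.7 deleted, 20.6 control) and Olig2 (20.7 and 22.4). Of 8 neuron markers 3 had peaks in both lists, as did 3 of 8 fibroblast markers (4.64 or more in the control list at each, 4.17 to 4.67 in the deleted list) and 3 of 8 microglial and endothelial markers. No peak in either list was found at 4 neuron, 5 fibroblast and 3 microglial or endothelial markers, and Rbfox3, Aif1 and Cdh5 had one in the deleted list only. The highest values among these markers were 8.86 and 9.48 at Map2 and 7.33 and 9.28 at Pecam1. Ribosomal protein genes are expressed in such cells too, and the part of other cells in the values was not tested.

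Promoter sequences are shown first, because the members on the X chromosome carried the lowest enrichment of the whole set and could be compared letter by letter with the autosomal members of highest enrichment. Of the 76 genes, 56 were matched by gene in the RefSeq promoter table (GRCm38.p6). For the other 20, among them Rps20, Rps29, Rps27a, Rpl23a and Rpl7, no promoter sequence was used. The 50 bases before the annotated gene start and the 50 bases from it onward are printed 5′ to 3′ on the coding strand, with the longest run of C and T in capitals.
The 4 X-linked genes:
Rpl10 (chrX:74270766-74270865, plus strand): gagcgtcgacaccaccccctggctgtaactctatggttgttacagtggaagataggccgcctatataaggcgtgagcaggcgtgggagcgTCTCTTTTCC
Rpl36a (chrX:134585604-134585703, plus strand): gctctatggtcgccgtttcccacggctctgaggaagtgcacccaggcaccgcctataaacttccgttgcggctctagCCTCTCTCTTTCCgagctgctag
Rpl39 (chrX:37085173-37085272, minus strand): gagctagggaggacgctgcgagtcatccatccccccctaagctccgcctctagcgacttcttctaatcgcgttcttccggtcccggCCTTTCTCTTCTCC
Rps4x (chrX:102189342-102189441, minus strand): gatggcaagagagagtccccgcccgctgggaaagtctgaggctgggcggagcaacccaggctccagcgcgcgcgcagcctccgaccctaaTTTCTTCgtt
The 4 autosomal genes with the best mean rank by fold enrichment over both lists, among those with a promoter entry:
Rpl13a (chr7:45128696-45128795, minus strand): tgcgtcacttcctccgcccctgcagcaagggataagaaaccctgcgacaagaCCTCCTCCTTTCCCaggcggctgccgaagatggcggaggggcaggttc
Rps19 (chr7:24884542-24884641, plus strand): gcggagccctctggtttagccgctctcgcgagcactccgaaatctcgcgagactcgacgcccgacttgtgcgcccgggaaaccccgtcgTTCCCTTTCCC
Rpl13 (chr8:123102300-123102399, plus strand): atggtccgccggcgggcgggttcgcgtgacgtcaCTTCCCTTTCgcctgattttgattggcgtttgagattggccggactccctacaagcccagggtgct
Rps18 (chr17:33955616-33955715, minus strand): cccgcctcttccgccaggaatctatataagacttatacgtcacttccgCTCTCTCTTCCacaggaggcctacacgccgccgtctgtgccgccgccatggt

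The pyrimidine run was 10 bases long in Rpl10, 13 in Rpl36a, 14 in Rpl39 and 7 in Rps4x. It was 14 bases in Rpl13a, 11 in Rps19, 10 in Rpl13 and 11 in Rps18, so 3 of the X-linked genes had a run as long as that of a highly enriched autosomal gene. In Rpl10, Rpl39 and Rps19 the run reaches the last printed base, so it may continue beyond the window. The first base of the run lay 27 to 40 bases downstream of the annotated start in the 4 X-linked genes, 39 bases downstream in Rps19 and 2 bases downstream in Rpl13a. In Rps18 it straddled the start and in Rpl13 it ended 7 bases upstream.

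A peak near every ribosomal protein gene was present in both cultures. All 76 genes had at least 1 peak in deleted and at least 1 in control cells, whereas 58.0% of all protein-coding genes had peaks in both. No member had a peak in 1 list only, a state found for 6.02% of protein-coding genes in deleted and 1.02% in control cells (5.17% and 1.22% of protein-coding genes of member length). Members are short, 982 to 11774 bases with a median of 3169.5 against 17329 for all protein-coding genes. Among the 7213 protein-coding genes within that range of length, 46.7% had peaks in both lists. The 77 mitochondrial ribosomal protein genes, which serve a separate ribosome, likewise all had peaks in both. Another protein-coding gene lay within 1 kb of 29 members, so that a peak can mark a neighbour's promoter; without peaks within 1 kb of another protein-coding gene, 61 members kept peaks in both lists.

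Enrichment at the members lay above that of most genes with a peak. The median of each gene's highest fold enrichment was 10.87 in the deleted list (95% interval of the median over genes 9.62 to 11.75, range 4.20 to 16.5) against 7.17 over all protein-coding genes with a peak there. In the control list it was 9.89 (9.50 to 11.1, range 4.64 to 16.1) against 6.86. These intervals describe the spread over genes of 1 library and are no replicate error. Genes of member length had medians of 7.22 and 7.09, and mitochondrial ribosomal protein genes 9.0 and 8.47. Ranked among all protein-coding genes with a peak, the members had a median percentile of 86.1 in deleted and 83.04 in control cells. In the top 10% of genes were 32 members in the deleted list, against a background of 10.4%, and 29 in the control list, against 10.1%. Both lists had 22 of them there, a count for which no share over all genes was computed. The cell culture was measured in bulk, so a lower level in every cell, fewer cells with the mark and fewer marked alleles cannot be told apart.

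**Figure D1:**
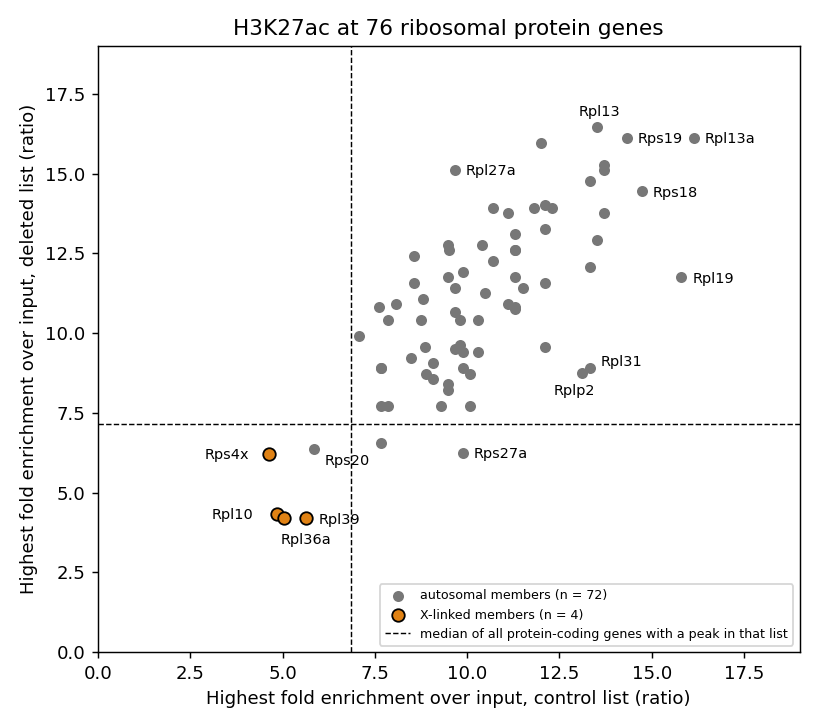
Highest fold enrichment of each of the 76 ribosomal protein genes in the control list (horizontal axis, ratio) and in the deleted list (vertical axis, ratio); each point is 1 gene and dashed lines mark the median over all protein-coding genes with a peak in that list. The 4 X-linked genes, in orange, lie at the lower left, with values of 4.20 to 6.21 (deleted) and 4.64 to 5.65 (control), below every autosomal member in each list.

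Among large-subunit genes the median was 11.75 in deleted and 9.89 in control cells. Rpl13 had the highest value of the deleted list (16.5, control 13.5), and Rpl13a, whose protein also binds certain mRNAs outside the ribosome, the highest of the control list (16.1 in each list). Rpl7 reached 15.95 in deleted and 12 in control cells, Rpl19 11.8 and 15.8, and Rpl10a 13.8 and 13.7. Rpl5 and Rpl11, whose proteins bind 5S ribosomal RNA and can bind Mdm2 when assembly fails, had 13.9 and 10.7, and 11.4 and 11.5. Rpl3, which lies close to the peptidyl transferase centre, had 9.23 and 8.47. Rpl3 was thus below the median of large-subunit genes in both libraries, and Rpl13 and Rpl13a were near the top in both.

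Among small-subunit genes the median was 10.54 in deleted and 9.99 in control cells. Rps19, the gene most often mutated in Diamond-Blackfan anaemia, had 16.1 and 14.3, and Rps29 had 15.3 and 13.7. Rps18, whose protein sits in the head of the small subunit, had 14.4 and 14.7. These 3 were high in both libraries. Rps14, the gene implicated in the human 5q- syndrome, had 12.8 and 10.4. Rps6, the substrate of S6 kinase, had 9.57 and 12.1. Rps27a, which encodes ubiquitin fused to a ribosomal protein, had 6.25 and 9.89. Rps20 was the lowest autosomal gene of the control list (5.85, deleted 6.38).

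The stalk, which recruits elongation factors, is formed by Rplp0 and by dimers of Rplp1 and Rplp2. Rplp0 had 8.40 in deleted and 9.48 in control cells, Rplp1 7.72 and 7.87, and Rplp2 8.75 and 13.1. All 3 were below the median of the 76 genes in the deleted list. Of the 3, Rplp2 alone was above it in the control list. Rpsa, the small-subunit gene also known for the laminin receptor, had 8.90 and 7.67.

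The 4 members on the X chromosome had the 4 lowest values of all 76 in each list, a pattern noticed after the values were seen. Rpl36a had a highest fold enrichment of 4.20 in deleted and 5.04 in control cells, Rpl39 4.20 and 5.65, and Rpl10, whose protein joins the large subunit late in its assembly, 4.33 and 4.84. Rps4x, whose human counterpart has a partner on the Y chromosome, had 6.21 and 4.64. The lowest autosomal members were Rps27a at 6.25 in the deleted list and Rps20 at 5.85 in the control list, so X-linked and autosomal members did not overlap in either. The margin was small for Rps4x in the deleted list. Among all protein-coding genes with a peak the X-linked members stood at percentiles of 16.9 to 39.3 in the deleted list, and of 19.02 to 32.3 in the control list.

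The X-linked members had medians of 4.27 and 4.94 and the 72 autosomal members 11 and 10.1. A difference in this direction was also present outside the set. Over all protein-coding genes with a peak, those on X had medians of 5.0 in deleted and 4.84 in control cells, and autosomal genes 7.22 and 7.0. Within member length the medians were 5.04 and 4.84 on X and 7.39 and 7.26 on autosomes. Both lists had a peak at 294 of 966 X-linked genes (30.4%) and at 59.3% of the autosomal genes. The X-linked members were thus in both lists near the level of other X-linked genes with a peak, while the autosomal members were above theirs. Neither the maternal and paternal copies nor an active and an inactive X are separated in these lists, and the part of X dosage in these values was not tested.

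Ranking by the pileup of tags at the summit, which leaves out the local background, put all 4 X-linked members lowest in the control list (22 to 27 tags) and 3 of 4 in the deleted list. There Rps20 (37 tags) was below Rpl10 (38 tags). At the Rpl10 peak of the deleted list the local background was 8.0 tags, above the 4.96 tags that most members had, which lowers its fold enrichment. With the body alone counted, Rps28 (5.37) fell below Rps4x in the deleted list. When peaks within 1 kb of another protein-coding gene were left out, all 4 X-linked members kept the values given above, but 7 of 63 autosomal members in deleted and 2 of 58 in control cells were left with a weaker peak than each of them.

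The 2 libraries ranked the members alike in part. Spearman's rho between the highest fold enrichments was 0.685 over the 76 genes and 0.630 over the 72 autosomal ones, against 0.852 over the 12552 protein-coding genes with peaks in both. These are descriptions across genes, which share the same 2 libraries and their depth. The ranks differed most for Rplp2 (rank 60 in deleted and 13 in control cells), Rpl31 (8.90 and 13.3), Rpl27a (15.1 and 9.67), Rpl29 (12.4 and 8.57) and Rps6. At Rplp2 the pileup was 69 tags in deleted and 64 in control cells, and the local background 7.0 and 3.96. The control background was 5.0 at Rpl27a and 6.0 at Rpl29, and at Rps27a the deleted background was 7.0. At Rplp2, Rpl27a, Rpl29 and Rps27a the background thus stood above the lowest value of the list in the library with the lower fold enrichment. In all, the background at the highest peak was above that value at 7 members (9.21%) in deleted and 8 (10.5%) in control cells, against 6.28% and 7.74% of all protein-coding genes with a peak. Its part in the ranks was not tested. At Rpl31 and Rps6 the background was at the lowest value in both lists.

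By the medians, peaks covered a larger part of the body at members than at genes within the members' range of length. The part differed widely between members and was as low as 9.41% in deleted and 8.72% in control cells at Rps15a. The covered width, the number of bases of the extended gene under a peak, had a median of 1613.5 in deleted and 1424 in control cells, against 1221 and 1034.5 for genes of member length with a peak. A median of 42.1% of the gene body was covered in deleted and 33.9% in control cells, against 15% and 12.6%. The genes of member length lie between 982 and 11774 bases but were not matched to the members' median length of 3169.5. The part of gene length in these percentages was not tested. The members' peaks had a median length of 667 bases over 183 peaks in deleted cells and 690.5 over 164 peaks in control cells. Over all peaks, which include those away from genes, the medians were 311 and 313 bases. The length of peaks at other genes was not compared. In the deleted list 14 members had 1 peak, 36 had 2 and 26 had 3 or more; in the control list these numbers were 21, 31 and 24. Gene length did not order the widths (rho 0.071 in the control list, n = 76 genes).

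Rpl13a had the greatest covered width in both lists, 3608 bases deleted and 3138 control, followed by Rps18 (3580 and 2837), which has B3galt4 and Vps52 within 1 kb and its highest summits upstream of the start, at -292 and -335 bases. Rpl18 came next in the deleted list (3292) and Rpl3 in the control list (2782). The longest single peak, 2588 bases at chr7:45126153-45128740 (mm10), lay within Rpl13a and had 2097 bases in the control list. The narrowest members were Rps29 (747 and 712), Rpl36a (812 and 870), Rps7 (931 and 786), Rpl10 (948 and 695) and Rpl17 (1013 and 665). Rps29 was thus among the most enriched genes and among the narrowest. Its gene is 1465 bases long.

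Covered width was larger in the deleted list at 63 members and larger in the control list at 13. That is 82.9% of members, against a background of 84.7% of all protein-coding genes with peaks in both lists, so the greater width in the deeper library was as frequent at other genes.

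**Figure D2:**
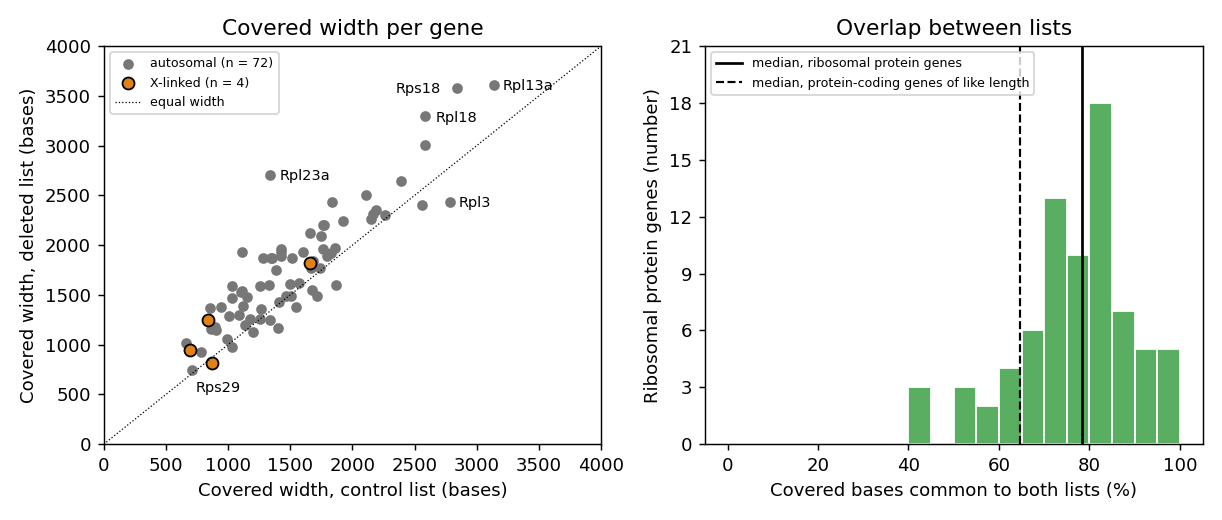
Left, covered width in bases of each ribosomal protein gene in the control list (horizontal) and the deleted list (vertical), 1 point per gene, with X-linked genes in orange and the dotted line at equal width; 63 of 76 points lie above the line. Right, number of genes by the percentage of covered bases common to both lists. The median of the 76 genes (78.4%) is a solid line and that of genes within their range of length (64.7%) a dashed line.

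Most covered bases were common to both libraries. The shared percentage, bases covered in both lists over bases covered in either, had a median of 78.4% (95% interval of the median 74.7 to 81.5, range 40.8 to 98.1). It was 54.4% over all protein-coding genes with peaks in both lists, 64.7% over those of member length and 73.7% over mitochondrial ribosomal protein genes. It reached 80% or more at 35 members and was below 50% at 3. Rps27a (98.1%), Rps14 (97.5%) and Rps21 (95.5%) were covered almost identically, an addition to the named genes made after the values were seen. The lowest were Rpl10 (40.8%), Rpl23a (42.7%), Rplp0 (43.4%), Rpl35 (51.1%) and Rpl37a (54.1%). Rpl23a, whose protein lies at the exit of the peptide tunnel, had 7 peaks over 2705 bases in deleted and 3 peaks over 1340 bases in control cells.

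Peaks of 1 list with no counterpart in the other were a smaller share of the peaks at members than over all genes. By the medians they were weaker than the members' shared peaks. The backgrounds given here are over genes of any length, with a median of 17329 bases against 3169.5 for members. The part of gene length in these shares was not tested. Of 183 member peaks in the deleted list 38 (20.8%) overlapped no control peak, against 47.9% of all peaks assigned to genes. Of 164 in the control list 10 (6.10%) overlapped no deleted peak, against 22.3%. At least 1 such peak lay at 31 members in the deleted list (background 67.9% of genes with a peak) and at 10 in the control list (background 40.0%). Rpl23a had 4, all in the deleted list. Rpl35, Rpl37a, Rps18 and Rps19 had 2 each in the deleted list, and Rpl10, Rplp0 and Rps10 had 1 in each list. Their fold enrichment was 2.71 to 4.92 in the deleted list (median 3.36) and in the control list 2.25 to 4.44 (3.40), against medians of 8.23 and 7.77 for the members' shared peaks. The strongest were at Rps15a (4.92), Rps10 (4.70) and Rpl34 (4.37) in the deleted list, and at Rpl32 (4.44) and Rplp0 (3.80) in the control list. The highest peak of a member was list-only at 0 of 76 genes in each list. Neither this count nor the fold enrichment of list-only peaks was set beside values over all protein-coding genes, so neither is shown to be particular to members.

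At members, as at most protein-coding genes with a peak, the highest summit lay mainly downstream of the annotated start. Where a gene had several annotated starts the outermost was used, and it may lie upstream of the main transcription start. Over the 56 genes whose start and strand were known, the summit of the highest peak lay at a median of 378 bases downstream in the deleted list (middle 50% of genes 252 to 436) and 362 in the control list (269 to 427). Over all protein-coding genes with a peak these medians were 321 and 335. The summit was downstream at 48 of 56 members (85.7%) in deleted and 50 (89.3%) in control cells, against 80.8% and 80.04% of all genes.

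The annotated start itself was usually bare. It lay inside a peak at 9 of 56 members (16.1%) in deleted and 5 (8.93%) in control cells, against 23.1% and 16.6% of all genes. A peak on each side with an uncovered start between them was found at 33 (58.9%) and 34 members (60.7%), against 34.7% and 34.98%. A peak on the downstream side alone was found at 13 (23.2%) and 16 members (28.6%), against 24.4% and 29.7%, which is near the background. On the upstream side alone it was found at 0 and 0 members, against 3.25% and 3.83%. Rpl22 had no peak within 1 kb of the annotated start used here. Its summits lay 1616 and 1777 bases downstream of that start. The uncovered gap had a median of 235 bases in deleted cells (n = 33 genes) and 272.5 in control cells (n = 34), against 258 and 302 over other genes. It ran from a median of -171 bases relative to the start to 44 in the deleted list, negative values being upstream, and from -181.5 to 71 in the control list.

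Downstream of the start the members formed a plateau. The other genes were of any length and included genes whose peaks all lay far from the start. No peak lay within 1 kb of the start at 14.5% (deleted) and 14.9% (control) of all genes with a peak. Among members this share was 1.79% in each list. A position 400 bases downstream was covered at 98.2% of members in each list, against 65.3% of other genes with a peak in deleted and 61.03% in control cells. At 1000 bases it was covered at 71.4% and 64.3% of members, against 27.9% and 24.0%. By 2000 bases coverage had fallen to 10.7% and 12.5%, against 8.0% and 6.2%. Upstream, at -400 bases, 58.9% and 51.8% of members were covered, against 39.2% and 35.3%.

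**Figure D3:**
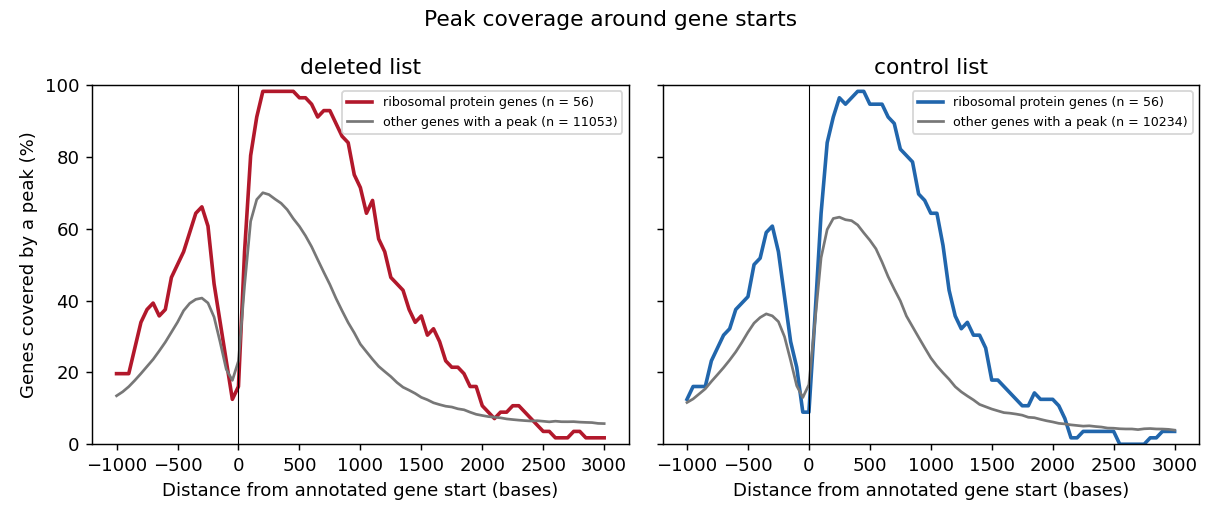
Percentage of genes covered by a peak (vertical axis) by distance from the annotated gene start (horizontal axis, bases, positive downstream), in the deleted list at left and the control list at right; coloured lines are the 56 ribosomal protein genes with a known start and grey lines all other genes with a peak in that list. The members fall to 16.1% and 8.93% at the start and rise to 98.2% at 400 bases in each list.

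The highest summits of the 2 libraries lay close together. Their separation had a median of 35 bases over the 76 members, against 73 over all protein-coding genes with peaks in both lists and 62 over those of member length. It was at most 100 bases at 54 members (71.1%), against 54.9% of all these genes and 58.2% of those of member length. It was over 500 at 7 (9.21%), against 23.01% and 17.96%, among them Rpl39 (1822), Rps2 (729), Rpl7a (672), Rpl3 (671), Rps12 (598) and Rpl14 (573). At Rpl39 the highest summit was at -197 bases from the start in deleted and at 1625 in control cells, so its 2 fold enrichments belong to different places, upstream of the gene and inside its body.

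Motifs were searched in each promoter from 250 bases before to 50 after the start, for the 56 members and for 17274 protein-coding promoters in all, of which 10112 belonged to genes with peaks in both lists. The 3 pyrimidine words listed next were searched on the coding strand only. CTCTTT was found in 21 members (37.5%, against 11.4% of all promoters and 10.05% of those with peaks in both lists), CTTTCC in 20 (35.7%, 14.0% and 14.2%) and CTTTTC in 11 (19.6%, 10.8% and 10.02%); these words can overlap each other. Within 50 bases on each side of the start the longest run of C and T had a median of 10 bases in members and 6 in all promoters. A run of 10 or more was present in 38 members (67.9%), against 17.3% of all promoters and 16.2% of those with peaks in both lists.

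The other motifs were searched on both strands. CTTCCG, the core bound by ETS factors, was in 39 members (69.6%, against 21.8% and 31.7%), and CCGGAAG, a longer ETS site whose reverse complement contains CTTCCG, in 22 (39.3%, against 12.1% and 18.2%). AAGATGGC, the YY1 site, was in 5 (8.93%, against 3.23% and 4.64%), and TATAAA in 6 (10.7%, against 13.4% and 6.61%). GGGCGG, the GC box bound by SP1, was in 33 (58.9%, against 46.9% and 63.8%). CACGTG, the E-box of Myc, was in 5 (8.93%, against 8.01% and 9.998%), and the palindromic NRF1 site in 1 (1.79%, against 1.35% and 2.17%). The pyrimidine words and CTTCCG were thus more frequent in members than in other marked promoters, and the GC box, the E-box and the NRF1 site were not. Each is a match of letters, not a shown binding site. The members had a median GC content of 57.5% and 21 CpG pairs per promoter, against 56.3% and 14 over all promoters and 61% and 21 over those with peaks in both lists.

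**Figure D4:**
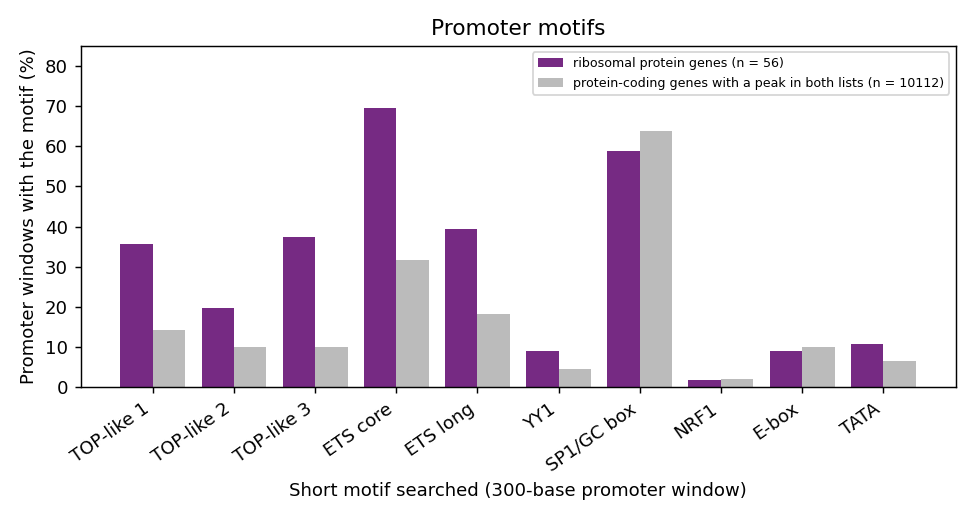
Percentage of promoter windows holding each motif, for 56 ribosomal protein genes (purple) and 10112 protein-coding genes with peaks in both lists (grey). TOP-like 1 is CTTTCC on the coding strand, TOP-like 2 is the word CTTTTC and TOP-like 3 the word CTCTTT, the ETS core is CTTCCG and its longer form CCGGAAG, and the rest are named as in the text; the ETS core is at 69.6% against 31.7%, and the GC box at 58.9% against 63.8%.

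Within the set, enrichment differed in either direction between genes with and without a motif. The 39 members with CTTCCG, of which 3 are X-linked, had a median highest fold enrichment of 9.91 in deleted and 9.80 in control cells. The 17 without it had 12.3 and 11.1. For CTCTTT the medians were 11.2 and 10.7 in the 21 genes with it, of which 2 are X-linked. In the 35 without it the medians were 10.4 and 9.68. For TATAAA they were 8.06 and 9.48 in 6 genes, of which 2 are X-linked, and 10.9 and 10.1 in 50. These differences between medians are smaller than the range among members and were not tested.

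Genes whose products work beside the ribosomal proteins nearly all had peaks in both lists, against 58.0% of all protein-coding genes. Their levels differed between sets. Over all protein-coding genes with a peak the median highest fold enrichment was 7.17 (deleted) and 6.86 (control). Both lists had a peak at 19 of 19 other genes listed for a TOP tract in their mRNAs (medians 10.04 and 9.60). Most of these, but not all, encode translation factors. The highest was Eef1a1, which delivers aminoacyl-tRNA, at 16.8 and 14.6. Peaks in both lists were also found at 14 of 14 RNA polymerase I genes (6.94 and 7.16, led by Ubtf at 17.6 and 17.1). The same held at 20 of 20 genes that regulate TOP mRNAs or ribosomal protein promoters (11.1 and 9.10, led by Mlst8 of the mTOR complex at 14.9 and 14.9). Of 30 ribosome assembly genes 29 had peaks in both lists (7.64 and 7.87, led by Rrs1 at 15.1 and 12.2). The exception was X-linked Utp14a, with a peak of 3.53 in the deleted list only. X-linked Dkc1, the pseudouridine synthase of the H/ACA particles, had 4.03 and 4.24. Among all protein-coding genes with a peak, RNA polymerase I genes were near the middle, at median percentiles of 47.5 (deleted) and 53.4 (control). Ribosome assembly genes stood at 55.9 and 62.7. The other TOP genes (79.9 and 80.7) and the regulators (87.3 and 76.2) were higher.

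Of 11 further genes with ribosomal protein names that the rule leaves out, 8 had peaks in both lists (medians 9.49 and 9.95), led by Rps27l (14.3 and 13.5) and including Rps3a1 (10.5 and 10.3). Rpl10l, Rpl39l and Rps27rt had a peak in neither list. Rpl10l and Rpl39l are retrogenes of the X-linked Rpl10 and Rpl39 that are known for expression in male germ cells.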

How the data were processed

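The submitters' processing notes name bcl2fastq, Bowtie 0.12.9 and the build mm10. Per the file headers, the authors ran MACS2 2.1.0.20140616 on 1 ChIP library and its input at a time, with a q-value limit of 0.05, down-sampling and 80-base tags. In the deposited lists stand the pileup signal at each summit, the −log10 p and −log10 q values, the fold enrichment (a ratio to local background) and the peak's position, all as the authors' run wrote them.

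Here peaks on chromosomes 1 to 19 and X were assigned to every gene whose body, extended by 1 kb, they overlapped by at least 1 base (Python 3.11.15, pandas 2.3.3, scipy 1.17.1). Gene positions, starts and promoters came from RefSeq tables on GRCm38.p6, the patch release of mm10. A peak can belong to more than 1 gene. Local background was recovered as (pileup + 1) / fold - 1. The assignment was tested on simulated data, in which every planted gene was recovered. Intervals of medians are exact binomial 95% intervals over genes. No test was made, for want of replicates. Named members were the 5 highest and lowest by fold and the 3 widest and narrowest in each list, the 5 lowest by shared percentage, the X-linked genes, those with most list-only peaks, and the 5 whose rank differed most; Rpl3, Rpl5, Rpl11, Rps14, Rpsa and Rplp1 were added for their known roles, and the genes with the strongest list-only peaks, the highest shared percentages or widely separated summits for their values, all after values were seen. From other lists the top gene and genes with a peak in 1 list only were named. Members, gene lists and motifs were chosen with earlier results of these data known. Alternatives varied the window, the peaks used, peaks near other genes, the overlap and the stretch searched. Some genes are not reported here by name.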

Additional observations from a re-analysis of the deposited data

How the results depend on the processing

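All 76 members kept peaks in both lists under 5 of the alternatives. These were the body only (all protein-coding genes 56.4%), a 2.5 kb extension (59.3%) and -log10 q of at least 5 (52.4%). The others were lists of equal length (57.0%) and a 50% overlap (55.8%). The number was 72 at fold enrichment of at least 5. There 1 member was deleted only (Rps4x), 2 were control only (Rpl39 and Rpl36a), and Rpl10 was in neither list. Of all protein-coding genes 42.9% were in both, 4.89% deleted only and 2.29% control only. Without peaks within 1 kb of another protein-coding gene the number was 61 (deleted only 6, control only 1). All protein-coding genes had 47.4%, 7.54% and 1.69%. Within 1 kb of the start the number was 55 of 56, against 49.8% of protein-coding genes with a start. Median fold enrichment stayed inside its interval in both lists under the 7 alternatives. Covered width moved to 1270.5 (deleted) and 1057 (control) with the body only, 1307 and 1160 around the start, 1423 and 1174.5 at fold 5, 1376 and 1259.5 without neighbours' peaks, and 1485 (deleted) at -log10 q of 5. The shared percentage was 73.9% with 2.5 kb, 87.6% around the start and 83.4% at fold 5. Deleted-only member peaks (38) numbered 24 with the body only, 7 around the start and 7 at fold 5. They numbered 21 at -log10 q of 5 and 23 with lists of equal length. Control-only peaks (10) numbered 17 with 2.5 kb, 3 around the start and 4 at -log10 q of 5. The number of member peaks kept and the share over all genes are not given here for these alternatives. The counts therefore do not show how the share of such peaks moved. The deleted summit distance was 404 without neighbours' peaks. X-linked members among the 4 lowest, alternatives chosen after seeing the data, numbered 1 (deleted) and 2 (control) at fold 5, where by construction most X-linked peaks are left out, and 0 and 2 without neighbours' peaks, where autosomal members lose their main peak. Within 50 bases of the start CTTCCG was in 21 members (37.5%, against 18.5% of promoters with peaks in both lists), CCGGAAG in 11 (19.6%, 11.4%), GGGCGG in 21 (37.5%, 41.8%), AAGATGGC in 3 (5.36%, 2.96%) and CACGTG in 2 (3.57%, 4.33%).

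No paired analysis was possible because each group had 1 ChIP library. Depth limits weak peaks, so a missing peak is not a missing mark, and the share of list-only peaks cannot be told apart from the depth difference. Start-based values cover 56 of 76 members.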

Other observations

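Ribosomal protein genes are known hosts of small nucleolar RNAs, which guide modification of ribosomal RNA. By RefSeq's gene positions, 29 of the 76 members (38.2%) held 58 snoRNA genes within their bodies, with a maximum of 5 in Rpl4, whereas 372 of all protein-coding genes (1.72%) held any. Rpl13a, which had the greatest covered width, held 4, and Rps18 and Rps19 held 0.

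The ribosomal protein pseudogenes, processed copies that carry no promoter of their own, were nearly all without a peak. Of 316 named pseudogenes on the chromosomes compared, 3 had a peak inside their body in deleted cells and 5 in control cells. Rps18-ps6 (fold enrichment 4.03 deleted, 4.0 control) and Rpsa-ps6 (3.19 and 3.57) had a peak in both lists. Only the control list had a peak at Rpsa-ps12 (2.80) and Rpsa-ps2 (3.23). These values lie below the lowest autosomal member of the same list. How reads that match several copies were treated is not given in the sources used here, so a missing peak at a pseudogene is not a missing mark.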
